A study of Mus musculus with 6 samples.

Results

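miR-101a and miR-101b are near-identical microRNAs (miRNAs) made from separate hairpin genes, and their guide strands were measured here in macrophages with and without Dicer. They were taken as the rows of the deposited Ct table named miR-101a and miR-101b, passenger strands left out, and are 2 of 596 miRNA assays, both among the 282 assays that could be tested. Bone marrow cells of male mice aged 6 to 8 weeks were turned into macrophages over 7 days of culture, with L929-conditioned medium as the source of macrophage colony-stimulating factor, and each sample is a separate mouse. The KO group was 3 mice of genotype LysM-Cre/Dicerflox/flox/Apoe–/– and the WT group was 3 mice of genotype LysM-Cre/Dicerwt/wt/Apoe–/–, so that all 6 mice carried the Cre driver and lacked Apoe. LysM-Cre is active in myeloid cells, so Dicer is expected to be lost in that lineage only, and how completely it was lost cannot be read from this panel, which holds no assay of Dicer mRNA.

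Dicer is the RNase that cuts the loop from a precursor hairpin and releases a duplex, from which the guide strand is loaded into an Argonaute protein. A miRNA recognises its targets mainly through its seed, bases 2 to 8 from the 5′ end. miR-101 is best known as a repressor of Ezh2, the histone methyltransferase of Polycomb repressive complex 2, as described in human tumour cells. It has also been described to repress Ptgs2, which encodes cyclooxygenase-2, and in mouse macrophages Dusp1, which encodes a phosphatase that turns off MAP kinases after Toll-like receptor signals.

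The mature sequences are shown because they set out how alike the members are; they are those of RefSeq on GRCm38.p6, 5′ to 3′, with the seed in capitals.
miR-101a-3p: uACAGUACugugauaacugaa
miR-101b-3p: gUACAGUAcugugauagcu
miR-101c: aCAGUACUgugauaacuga
miR-144-3p: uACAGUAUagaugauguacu
miR-101a-3p lies at chr4:101346957-101346977 on the minus strand and miR-101b-3p at chr19:29135338-29135356 on the plus strand. With the first base of miR-101a-3p set against the second base of miR-101b-3p, 17 of 18 aligned bases are identical, the first 15 of them without a break. The single difference is A16G, counted from the 5′ end of miR-101a-3p, with the base of miR-101a-3p first. As annotated, miR-101b-3p begins 1 base earlier, so that its seed by position is UACAGUA and that of miR-101a-3p is ACAGUAC, and each of these seeds belongs to 1 of the 1738 mature miRNAs in the RefSeq table. miR-101c starts 1 base later than miR-101a-3p and has the seed CAGUACU. miR-144-3p, which is made in the erythroid lineage, differs from miR-101a-3p within the seed by C8U alone. The panel had no assay named miR-101c or miR-144. The files give no probe or primer sequences, and whether the miR-101a assay also detects miR-101b, or the reverse, was not tested.

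The hairpins from which Dicer releases them are shown with the guide strand in capitals, since they are the precursors that Dicer cuts; their processing was not measured.
Mir101a: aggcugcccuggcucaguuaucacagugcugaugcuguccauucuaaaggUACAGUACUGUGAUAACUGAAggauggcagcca
Mir101b: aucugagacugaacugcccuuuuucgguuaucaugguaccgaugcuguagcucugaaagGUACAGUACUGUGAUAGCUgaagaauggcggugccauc
The Mir101a hairpin is 83 bases long with the guide at bases 51 to 71, and the Mir101b hairpin is 97 bases long with the guide at bases 60 to 78. In both the guide is the 3′ arm, next to the loop on its 5′ side. In the RefSeq gene table Mir101a lies within the span of the long non-coding RNA gene E130102H24Rik, and Mir101b within that of Rcl1, a protein-coding gene of ribosome biogenesis; the table does not say whether either is exonic or intronic.

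The threshold cycle (Ct) is the PCR cycle at which an assay crosses its detection threshold, so a later Ct means less template and a step of 1 cycle stands for a doubling. The assays form 2 blocks of rows, pool A with miR-101a and pool B with miR-101b, each with its own measurements of 5 endogenous small RNA controls (U6, U87, Y1, snoRNA135 and snoRNA202). Wells without amplification are listed at Ct 40, and values of 35 or later were set to a ceiling of 35. The mean control Ct was 22.8, 20.3 and 19.3 in KO replicates 1 to 3, against 21.1, 20.6 and 19.1 in WT, in pool A (exact permutation p = 0.8, two-sided). In pool B it was 22.1, 19.3 and 19.3 in KO, against 21.1, 19.3 and 19.0 in WT (exact permutation p = 0.7). KO replicate 1 therefore had the latest controls in both pools. The number of detected miRNA assays was 219, 277 and 290 in KO replicates 1 to 3, lowest in KO replicate 1 as well, and 307 to 309 in WT samples. The 10 control measurements, set against their pool mean, had KO minus WT differences from -0.18 to 0.28 (log2).

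Of the markers of macrophages and other myeloid cells, among them miR-223 and miR-142-3p, 6 of 6 were tested, and their summed level was 7962 to 14409 in KO samples and 28268 to 52551 in WT samples, in thousandths of the control level. By the names of the Ct table, the liver miRNA miR-122 and the muscle miRNA miR-1 were at Ct 40 in all samples. The deposited ratios under the name miR-1 are those of another Ct row, as set out below. The muscle miRNA miR-133a was at Ct 34.4 in KO replicate 1, at 31.96 in WT replicate 1 and at 40 in the other samples. The neural miRNA miR-124 was at Ct 27.98 in WT replicate 1 and at 40 in the other samples. Neither miR-133a nor miR-124 was tested. Assays of other cell types were measured as well: the summed level of the 4 stromal miRNAs was 48.4 to 98.7 in KO samples and 5.08 to 615 in WT samples on the same scale, with WT replicate 3 the lowest. That of the 2 endothelial miRNAs was 0.661 to 6.63 in KO and 7.48 to 13.3 in WT, and that of the 5 tested epithelial miRNAs 22.0 to 52.9 in KO and 114 to 130 in WT. The 2 lymphocyte miRNAs summed to 28.8 to 62.3 in KO and 123 to 193 in WT. The neural miRNA miR-9 was at no more than 0.218 in KO replicate 1, where it was at Ct 40, at up to 0.717 in the other KO samples and at 0.861 to 2.58 in WT, and the erythroid miRNA miR-451 was not tested. The endothelial and epithelial sums in KO also hold wells set to the ceiling, miR-126-3p and miR-200a in KO replicate 1 and miR-429 in KO replicates 1 and 2, so that they are upper bounds in those samples. Their part in the results below was not tested. In such bulk samples fewer cells that hold a miRNA and less of it per cell cannot be told apart.

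Both members were detected below the ceiling in every sample and were less abundant in KO macrophages. miR-101a had Ct values of 30.8, 26.9 and 26.0 in KO replicates 1, 2 and 3, against 25.7, 25.3 and 23.8 in WT. Every KO sample crossed the threshold later than every WT sample, even before any correction for input. miR-101b had Ct values of 32.01, 27.5 and 26.7 in KO, against 27.1, 25.6 and 24.7 in WT. Here the groups overlapped as deposited, since KO replicate 3 was earlier than WT replicate 1, whose controls were also later.

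Set against the controls of the same pool, the groups separated for both. The log2 relative abundance of miR-101a was -7.99, -6.67 and -6.63 in KO samples and -4.60, -4.71 and -4.68 in WT samples. The WT samples lay within a narrow band and the KO samples below it, with KO replicate 1 the lowest. That of miR-101b was -9.86, -8.26 and -7.43 in KO and -6.07, -6.25 and -5.67 in WT. Again no KO sample reached the WT range, and KO replicate 1 was lowest. A full separation of the groups with KO below WT was common on the panel and was seen in 59.9% of the tested assays.

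**Figure D1:**
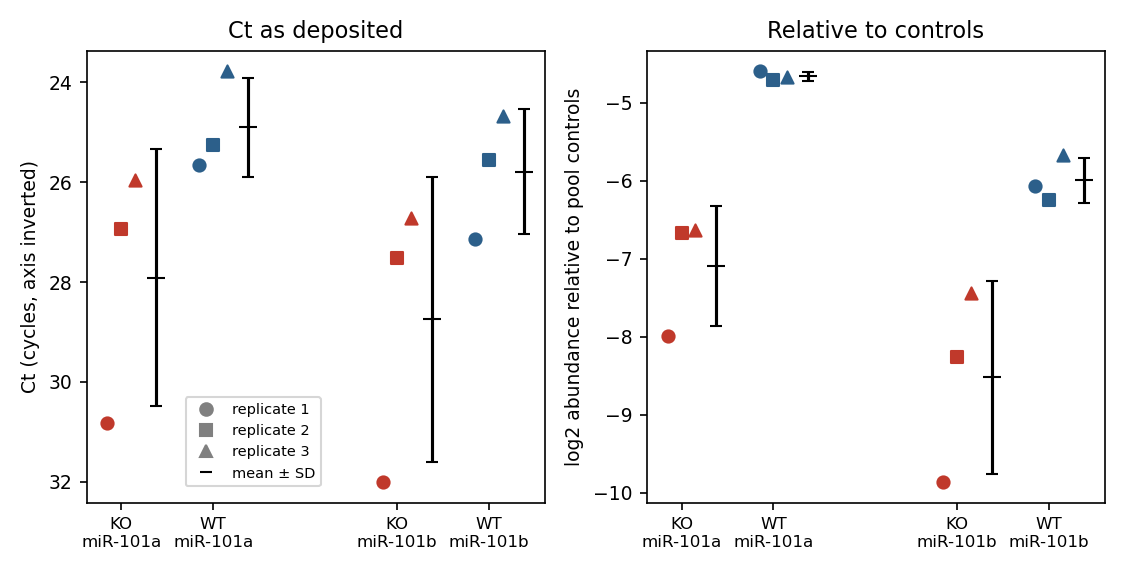
Ct values as deposited (left, cycles, axis inverted) and log2 abundance relative to the mean of the 5 controls of the pool (right) for miR-101a and miR-101b; each point is a mouse, red for KO and blue for WT, and bars give the mean ± SD (n = 3). Relative to the controls no KO point reaches the WT points of the same assay, and KO replicate 1 is the lowest for both.

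miR-101a averaged -7.10 ± 0.77 in KO and -4.66 ± 0.06 in WT (log2 relative abundance, SD, n = 3 each). It fell 5.41-fold, a log2 difference of -2.44 ± 0.57 (KO minus WT, SE; limma, Benjamini-Hochberg adjusted p = 0.0312, taken over the 282 tested assays), with a 95% interval from 2.13-fold to 13.7-fold. miR-101b averaged -8.52 ± 1.23 in KO and -6.00 ± 0.29 in WT (SD, n = 3 each). It fell 5.74-fold, a log2 difference of -2.52 ± 0.72 (SE; limma, adjusted p = 0.037), with a 95% interval from 1.76-fold to 18.8-fold. Both are thus among the 105 assays (37.2% of those tested) that were lower in KO at an adjusted p under 0.05. By pool these were 84 of 179 tested assays in pool A, with miR-101a, and 21 of 103 in pool B, with miR-101b. With the replicate number as a block both members passed too (limma, adjusted p = 0.042 and 0.0431), as did 41.8% of the tested assays in the same direction.

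These calls rest on the small number of mice. Without KO replicate 2 neither member passed (limma, adjusted p = 0.056 for miR-101a and 0.0707 for miR-101b), nor without WT replicate 1 (0.111 and 0.113), WT replicate 2 (0.109 and 0.111) or WT replicate 3 (0.0733 and 0.0941), while without KO replicate 1 or KO replicate 3 both did. The number of lower assays was 3 without KO replicate 2 and 2 without any of the WT samples, in place of 105.

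The size of the fall varied more between KO mice than its mean shows. Expressed as a share of the WT mean, miR-101a was at 9.98%, 24.8% and 25.5% in KO replicates 1, 2 and 3. miR-101b was at 6.86%, 20.9% and 36.9% in the same samples. The lowest mouse thus kept a smaller share of both, and the KO order was the same for both. The median over all tested assays, each set against its own WT mean, had that order as well, at -2.29, -1.65 and -1.42 on the log2 scale in KO replicates 1, 2 and 3. Without KO replicate 1, the sample with the latest controls, miR-101a was 3.97-fold lower (limma, adjusted p = 0.0275) and miR-101b 3.60-fold lower (adjusted p = 0.0381). Without KO replicate 3 they were 6.35-fold and 8.36-fold lower (limma, adjusted p = 0.0352 and 0.0339).

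The members did not differ detectably from each other in their response. The log2 relative abundance of miR-101b minus that of miR-101a in the same sample was -1.88, -1.59 and -0.80 in KO and -1.47, -1.54 and -0.999 in WT. The groups overlapped, with means of -1.42 ± 0.56 in KO and -1.33 ± 0.29 in WT (SD, n = 3 each). The difference of these means was -0.09, with a 95% interval from -1.09 to 0.92 (t distribution, pooled variance). An exact permutation test gave p = 0.8 (two-sided), where 3 against 3 samples cannot give less than 0.1. The interval reaches from a larger to a smaller fall of miR-101b than of miR-101a, so it does not show that both responded alike. Because each assay amplifies with its own efficiency and has its own pool of controls, the level of miR-101a was not compared with that of miR-101b.

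The comparison of the members does depend on the yardstick of each pool. The mean of the miRNA assays detected in all 6 samples had a KO minus WT difference of -1.89 in pool A (140 assays) and of -0.64 in pool B (61 assays), on the log2 scale relative to the controls. Against that mean, instead of the controls, miR-101a differed by -0.55 (limma, adjusted p = 0.482) and miR-101b by -1.88 (adjusted p = 0.249). Neither passed, and from this it does not follow that they changed as much as the rest of their pool. On this scale miR-101b minus miR-101a was -2.19, -0.65 and -0.60 in KO and -0.26, 0.69 and 0.12 in WT. These did not overlap, with a difference of -1.33 in place of -0.09 (exact permutation p = 0.1, the smallest possible).

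Among all tested assays the members lay below the middle. The median log2 difference was -1.91 over all 282, -2.03 over the 179 of pool A and -1.15 over the 103 of pool B. Counted from the largest fall, miR-101a was number 72 and miR-101b number 66 of 282. Within their own pools miR-101a was number 46 of 179 and miR-101b number 24 of 103.

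**Figure D2:**
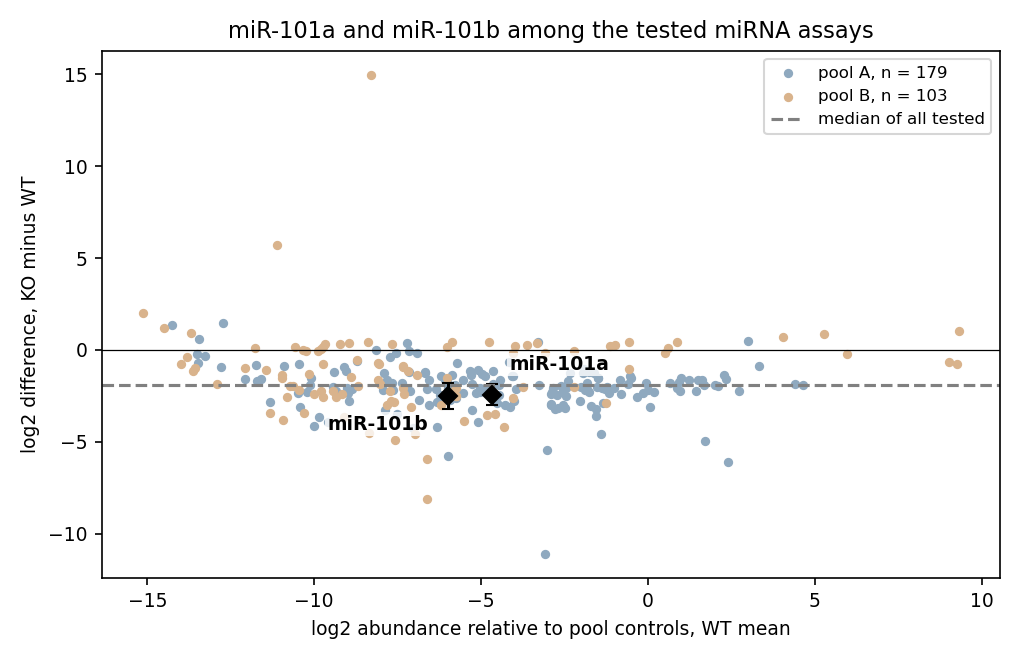
The log2 difference KO minus WT of each tested miRNA assay (vertical axis) against its WT mean log2 abundance relative to the pool controls (horizontal axis), with the assays of pool A in blue and pool B in tan; black diamonds with SE bars mark miR-101a at -2.44 and miR-101b at -2.52. Both lie slightly below the dashed line, the median of -1.91 over all tested assays.

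By the names of the Ct table, the other strand of the Mir101a hairpin gave no signal. The row named miR-101a# there, where # marks a passenger strand, was at Ct 40 in all 6 samples and was not tested, whereas the row of that name in the ratio table described next holds amplified values. RefSeq gives this 5′ arm as miR-101a-5p: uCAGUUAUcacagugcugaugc
The panel had no assay of the other strand of Mir101b.

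The deposited ratio table and the Ct table do not match for the rows named miR-101b and miR-101a#. The ratio of each row was recomputed from the Ct table as the quantity relative to U6, snoRNA135 and snoRNA202 of the pool, divided by the geometric mean of WT, and it equalled the deposited value within 0.01 on the log2 scale in 563 of 596 rows. miR-101a was among them: the authors' deposited table gives it 0.111, 0.259 and 0.254 in KO and 1.08, 0.938 and 0.984 in WT. The values recomputed for the miR-101b Ct row were 0.0636, 0.227 and 0.354 in KO and 0.889, 0.918 and 1.23 in WT. In the authors' deposited table these values stand in the row above, named miR-101a#. The row named miR-101b in the authors' deposited table holds 0.268, 0.0425 and 0.613 for KO and 6.59, 0.0443 and 3.42 for WT, which are the values recomputed for the Ct row of miR-10b#, the passenger strand of miR-10b. That row had Ct values of 40, 40 and 35.99 in KO and 34.3, 40 and 33.3 in WT, so the deposited ratios under the name miR-101b come largely from wells at or near no amplification.

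The deposited fold changes follow the ratio table. In the authors' deposited table of fold changes miR-101a is 4.81-fold lower in KO, the row named miR-101b is 10.9-fold lower and the row named miR-101a# is 4.71-fold lower. Recomputed by the same formula from the Ct rows, miR-101a was 4.81-fold and miR-101b 4.71-fold lower. Which table has the right names cannot be told from the ratios themselves, and all results for miR-101b and miR-101a# here hold for the rows that the Ct table gives those names. miR-10b, which pool A measured as well, gives a comparison of names. The Ct row named miR-10b in pool B was at 40, 40 and 35.4 in KO and 34.96, 35.4 and 33.9 in WT, and the pool A assay of the same name at 40, 34.6 and 33.4 in KO and 29.9, 30.6 and 29.0 in WT. Both rows were later in KO, apart from KO replicate 3 and WT replicate 2 of pool B, which were level at 35.4. The row named miR-10b of pool B in the authors' deposited ratio table holds 12.3, 0.0105 and 0.00938 in KO and 8.23, 15.3 and 0.00793 in WT, where the groups overlap.

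**Figure D3:**
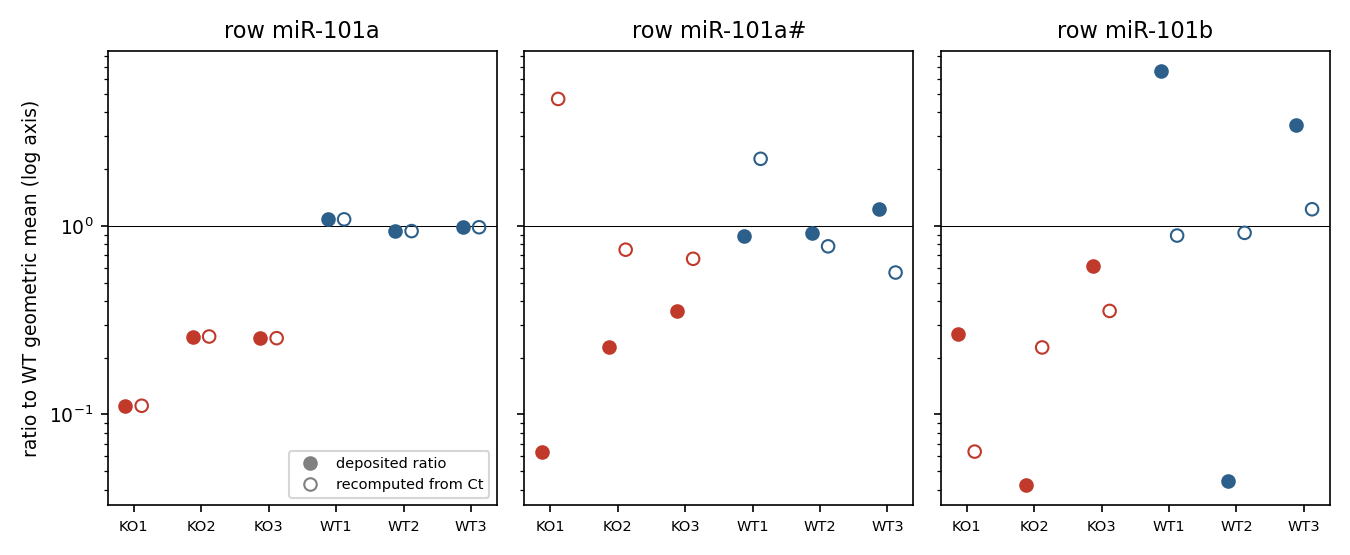
Ratio to the WT geometric mean (log axis) in each of the 6 samples, as deposited (filled) and as recomputed from the Ct row of the same name (open), for the rows named miR-101a, miR-101a# and miR-101b; KO is red and WT blue. The values coincide for miR-101a, and the filled points of miR-101a# equal the open points of miR-101b.

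Several other miRNAs had nearly the same profile over the 6 samples. Likeness was taken as the root mean square difference of log2 relative abundance after each assay's own mean was subtracted, which had a median of 0.88 between miR-101a and the other 281 tested assays. Nearest to miR-101a were miR-340-5p (0.11), miR-340-3p (0.11) and miR-872 (0.12). The first pair are opposite strands of 1 hairpin. miR-340-5p had -5.76, -4.70 and -4.57 in KO and -2.31, -2.53 and -2.58 in WT (log2 relative abundance). Its KO samples were all lower than its WT samples, with KO replicate 1 again lowest. These 3 assays were 5.16-fold to 5.80-fold lower in KO (limma, adjusted p = 0.0312 for each), calls that were lost without KO replicate 2 (0.056 to 0.0581) or any WT sample (0.0733 to 0.111), as for miR-101a. They were chosen for their likeness to miR-101a in these same samples. Their falls and calls therefore follow from that choice and are no separate evidence.

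Nearest to miR-101b were let-7a# (0.20), the passenger strand of a let-7a hairpin, miR-700 (0.23) and miR-26a (0.25), against a median of 1.02 over the other 281 assays. let-7a# had -10.8, -9.52 and -8.75 in KO and -7.08, -7.69 and -7.14 in WT. It fell 5.26-fold and miR-700 fell 6.15-fold (limma, adjusted p = 0.034 for each), and without KO replicate 2 or any WT sample neither passed (0.0634 to 0.113). miR-26a was 4.81-fold lower and did not pass (adjusted p = 0.0562). The members themselves were 0.37 apart, which made miR-101b number 30 from miR-101a and miR-101a number 12 from miR-101b. These distances describe 6 samples in which most miRNAs fell together. The assays nearest to miR-101b were chosen in the same way, so their falls and calls are no separate evidence either.

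**Figure D4:**
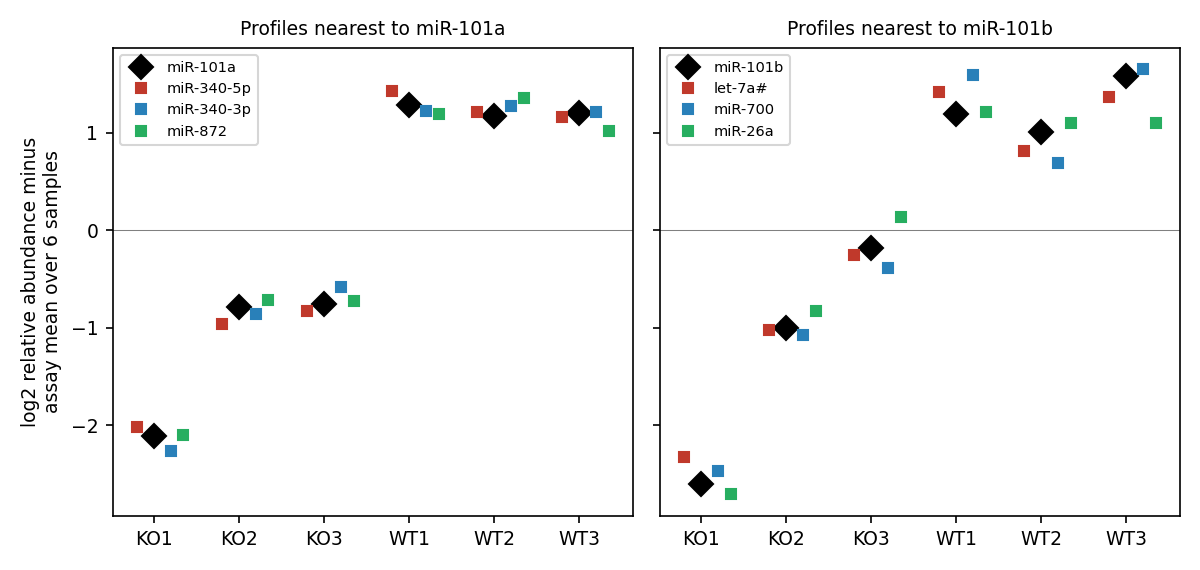
Log2 relative abundance minus the assay's own mean over the 6 samples (vertical axis) in each sample (horizontal axis), for miR-101a (left) and miR-101b (right) as black diamonds with the 3 nearest assays of each as coloured squares. In both panels KO replicate 1 is lowest and the 3 WT samples are highest.

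Of 9 miRNAs reported, mostly in human cells, to repress Ezh2 as miR-101 does, 6 were tested and 3 were lower in KO, beside 37.2% of all tested assays. All 6 are assays of pool A, where 84 of 179 tested assays were lower. The median of the 6 was -2.59, against -1.91 over all tested assays and -2.03 over those of pool A. let-7a, a growth-restraining miRNA of the let-7 family, had Ct values of 27.4, 23.8 and 24.0 in KO and 21.7, 21.9 and 21.1 in WT, and it fell 7.49-fold (limma, adjusted p = 0.0312). miR-98, also of the let-7 family, was at Ct 40 in all KO samples and at 23.7, 23.9 and 22.3 in WT. It entered the test through its WT samples alone and is 1 of the 3 counted as lower. With each KO sample set to the ceiling of 35, its level in KO was lower by at least 2209-fold (limma, adjusted p = 0.00222), a bound of -11.1 on the log2 scale. The KO spread in that test is the spread of the control Ct alone, so the p-value does not measure how miR-98 varied between KO mice. For the same reason the bound moved with the controls, to -12.1 without KO replicate 1 and -10.4 without KO replicate 3. miR-138 had Ct values of 35.97, 30.7 and 29.8 in KO and 29.5, 28.0 and 25.8 in WT, a fall of at least 11.1-fold with KO replicate 1 at the ceiling (adjusted p = 0.0312). Like miR-98, it entered the test through its WT samples alone and is counted among the 3. miR-26a had a difference of -2.27 ± 0.78 and miR-26b of -1.51 ± 0.53 (SE; limma, adjusted p = 0.0562 and 0.0583). Both passed with a ceiling of 32 (adjusted p = 0.0392 for miR-26a and 0.0443 for miR-26b) and when every sample had to be below the ceiling (0.0263 and 0.0349). miR-26a also passed with U6 alone as reference (0.0396) and without KO replicate 3 (7.46-fold lower, adjusted p = 0.0363), and it was 2.79-fold lower without KO replicate 1 (adjusted p = 0.0532). miR-214 was at -1.16 ± 1.87 (adjusted p = 0.64), with -0.02 without WT replicate 2, -0.03 without WT replicate 1, -0.63 without KO replicate 1, -1.77 without KO replicate 3 and -3.44 without WT replicate 3. miR-124, miR-137 and miR-217 were not tested, and of these miR-137 was at Ct 40 in all samples. The count was 1 without KO replicate 2 or any of the 3 WT samples, where 3 and 2 assays of the whole panel were lower. It was 4 without KO replicate 3, beside 112 of 285 tested assays, and 4 with U6 alone, beside 117 of 282. With a ceiling of 32 it was 5, beside 117 of 246 tested assays. When every sample had to be below the ceiling, miR-98 and miR-138 were not tested. The count was then 3, beside 114 of 201 tested assays, and the median -1.89, against -1.82 over those 201.

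Of 6 miRNAs reported to repress Ptgs2, 5 were tested and 0 passed with limma, beside the 37.2% of all tested assays. All 5 are assays of pool A, where 84 of 179 tested assays passed as lower. An unadjusted p under 0.05 (limma) was found for 1 of the 5, beside 152 of the 282 tested assays. The 1 was miR-26b, which passed with the ceiling of 32 and the stricter filter, as given above. The others were miR-146a, a feedback inhibitor of Toll-like receptor signalling, at -1.98 ± 0.85 (SE; adjusted p = 0.0985), miR-16 at -1.37 ± 0.67 (adjusted p = 0.132), miR-199a-3p at -1.21 ± 1.39 (adjusted p = 0.517) and miR-143 at -0.74 ± 1.68 (adjusted p = 0.752). The median of the 5 was -1.37, against -1.91 over all tested assays and -2.03 over those of pool A. Single samples moved several of these values. miR-146a was at -1.08 without KO replicate 1 and -2.68 without KO replicate 3. miR-199a-3p was at -0.19 without WT replicate 1, -0.59 without WT replicate 2 and -2.86 without WT replicate 3. miR-143 had Ct values of 29.2, 27.2 and 25.5 in KO and 24.2, 24.7 and 29.0 in WT, so that in Ct WT replicate 3 lay among the KO samples. Relative to the controls WT replicate 3 was at -9.92, below the KO samples at -6.33, -6.89 and -6.19. On that scale no WT sample lay below a KO sample for miR-101a or miR-101b. The count was 1 without KO replicate 3, miR-146a (limma, adjusted p = 0.0458), beside 112 of 285 tested assays. It was also 1, miR-26b, with the ceiling of 32, beside 117 of 246 tested assays, and with the stricter filter, beside 114 of 201.

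**Figure D5:**
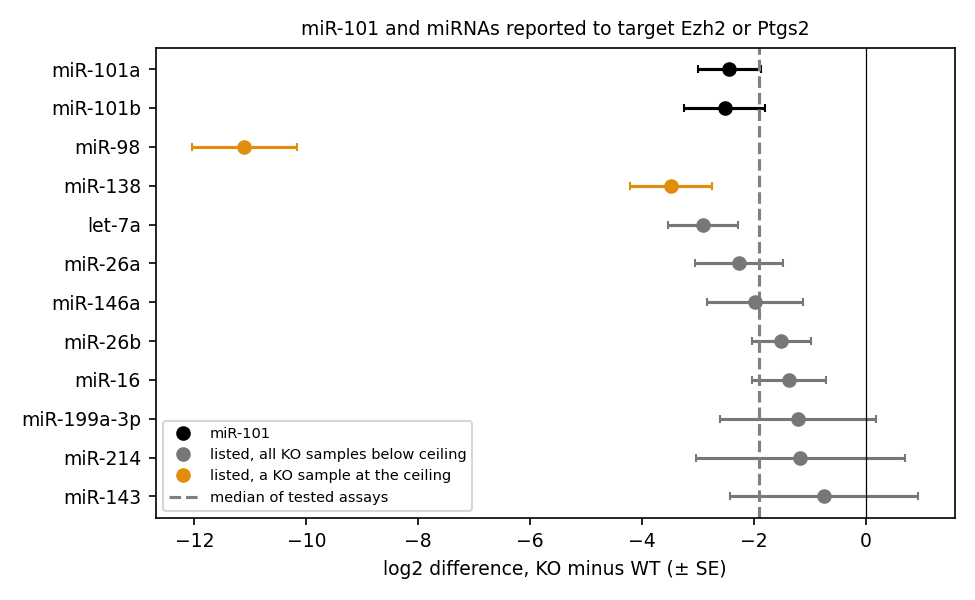
Log2 difference KO minus WT (± SE) of miR-101a, miR-101b and the tested miRNAs reported to repress Ezh2 or Ptgs2. Orange points have at least 1 KO sample at the ceiling, so that they are bounds; the dashed line is the median of all tested assays, -1.91, and every point lies below 0.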

How the data were processed

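miRNAs were assayed by TaqMan RT-PCR after mirVana isolation, reverse transcription and preamplification, per the labels' protocols. Instrument and software: not given in the sources used here. Deposited by the authors were Ct scores per assay, ratios relative to WT, and KO over WT fold changes. Log2 relative abundance was the mean Ct of the 5 controls of the same pool and sample minus the assay's Ct, after Ct values of 35 or later were set to 35. An assay was tested if below 35 in all 3 samples of at least 1 group. The genotypes were compared by limma 3.58.1, under R 4.3.3 (genotype alone, two-sided, Benjamini-Hochberg adjustment, threshold 0.05). This fit was checked on simulated data with independent noise in each assay, which does not cover shifts that many assays of a sample share. Single values were compared by exact permutation tests over samples. The interval for the difference between the members came from a t distribution with pooled variance. Figures used Python 3.11.15 and matplotlib 3.10.9. The members, lists and tests were chosen with earlier results of these data known. Named were the members, their hairpin relatives, the 3 nearest profiles of each member, the controls and both target lists. Alternatives changed the reference, ceiling, filter, table, block and samples. Same-number KO and WT samples deviated together (correlations of 0.23, 0.28 and 0.27 across assays, -0.28 to 0.01 for unlike numbers), so the numbers may pair the samples, although no label states a shared batch; the block was an alternative, and neither the reported fit nor the exact tests used it. Only the control Ct values show the amount of RNA assayed, and 3 mice per group limit the precision.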

Additional observations from a re-analysis of the deposited data

How the results depend on the processing

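miR-101a and miR-101b were lower in KO under every alternative run. With U6 alone or with U6, snoRNA135 and snoRNA202 as reference, a ceiling of 32, the floor set after scaling, the filter for all 6 samples or the replicate block, both kept their call; the block gave an adjusted p of 0.042 for miR-101a and 0.0431 for miR-101b at log2 differences of -2.44 and -2.52, 118 lower assays in place of 105, and -0.09 for the difference between the members, and it changed no call among the nearest profiles or in either target list; of the myeloid markers, miR-142-5p passed with the block (0.0483) and not without it (0.0735), so that 4 in place of 3 of the 6 were lower. Without a reference (-3.01 and -2.95), with the global mean (-0.55 and -1.88) or without a filter (-2.44 and -2.52) neither passed, and 2 assays were lower in each case, with 0, 1 and 1 higher. miR-101b alone lost its call with the ceiling at 40 (-2.52, adjusted p = 0.0502) and with the deposited ratios under its name (-2.39, adjusted p = 0.389), which are those of another Ct row. The median over tested assays was -2.02 with U6 alone, -2.45 without a reference and -0.20 with the global mean. Leaving out 1 sample gave -2.67 to -1.99 for miR-101a, -3.06 to -1.85 for miR-101b, -0.40 to 0.14 for the difference between them and 2 to 112 lower assays; that difference was 0.058 without a reference. With the global mean miR-26b (0.38), miR-214 (0.72), miR-199a-3p (0.68), miR-16 (0.52) and miR-143 (1.15) turned positive, and miR-143 ranged from -2.83 to 0.56 without single samples, being 0.56 without WT replicate 1 and 0.05 without WT replicate 2. Fewer samples or more assays tested apply in the settings that leave out a sample or the filter; for the others the cause was not tested.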

Other observations

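The mismatch for miR-101b belongs to a set of 33 rows, 6 in pool A and 27 in pool B, whose deposited ratios equal those recomputed from a Ct row of another name; which table has the right names was not settled. In pool A the names involved are 3 pairs. The row named miR-21 in the authors' deposited table, 3.43-fold lower in KO, holds the values of the Ct row of miR-210, and the row named miR-210, 4.68-fold lower, those of miR-21. The row named miR-1, a miRNA of muscle, is 3.98-fold lower in the authors' deposited table and holds the values of miR-100, whereas the Ct row of miR-1 was at 40 in all 6 samples. The row named miR-32 is 2.79-fold lower and the row named miR-320 7.69-fold lower in the authors' deposited table, with their values exchanged in the same way.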
